A study of Mus musculus with 10 samples.

Results

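Chromatin remodelling and histone modifier genes were followed through 2 splicing experiments in mouse cells. Members were all exon and intron events of genes whose symbols begin with Kdm2 to Kdm8, Kmt and a digit, Smarca to Smarce, Chd and a digit, Arid and a digit, Hdac and a digit or Mta and a digit, together with Trrap. The rule returned 74 genes with 1726 exon events and 1627 intron events, of 192593 exon events and 189134 intron events in the whole table. At least 10 reads in each sample supported 1613 of these exons and 1518 of these introns. The symbols Chd3os and Kdm6bos also met the rule, each with 1 event, but name antisense RNAs. No source used here says whether counting used strand, so their reads cannot be told apart from those of the partner genes, and neither event was tested.

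The first experiment used N2A cells, a mouse neuroblastoma line, transfected with a pool of siRNAs against Qk (siQk, 3 samples) or a non-targeting pool (siNT, 3 samples) at 40 nM and harvested after 72 h. The second used glutamatergic neurons differentiated from mouse embryonic stem cells. On day 7 in culture the neurons were left untreated (2 samples) or given 100 uM cycloheximide for 12 h (2 samples). Cycloheximide is an inhibitor of translation. A knockdown in 1 cell line leaves residual Qk, and no second line or separate siRNA was analysed here. The labels call the samples of each group biological replicates.

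Chromatin remodelers of the SWI/SNF and CHD families use ATP to move or evict nucleosomes. Lysine methyltransferases (Kmt) and demethylases (Kdm) write and erase methyl marks on histones, and deacetylases (Hdac) remove acetyl groups. Mta proteins are subunits of the NuRD complex, which combines remodelling with deacetylation, and Trrap is the large scaffold that acetyltransferase complexes such as TIP60 and SAGA share. Several of these genes carry exons that neurons splice differently from other cells, among them microexons, which are exons of 3 to 27 nt. Quaking, the product of Qk, is an RNA-binding protein that recognises ACUAAY motifs (Y is C or U) and regulates splicing.

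Sequences are given for the 2 events on which the results turn and for which the reference holds the exon. All are from the GENCODE M21 transcripts of the mm10 assembly and are written 5′ to 3′ on the plus strand. In Trrap the alternative pair lies at chr5:144810151-144810204 and chr5:144810332-144810352, inside the coding sequence of transcript Trrap-207. Their lengths of 54 nt and 21 nt are multiples of 3.
Trrap 54 nt exon: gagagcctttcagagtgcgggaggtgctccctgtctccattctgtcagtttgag
Trrap 21 nt exon: cctgccatggaaggggtagag
The Smarcc2 event is an exon with 2 ends. The short form runs over chr10:128487934-128488017 (84 nt), and the long form of transcript Smarcc2-203 runs over chr10:128487934-128488359 (426 nt). The added 342 nt are coding throughout in that transcript and are a multiple of 3. The first sequence spans the end of the short form, with exon bases of the short form in capitals (chr10:128487994-128488053). The second is a stretch of the added part with each CTAAC in capitals (chr10:128488117-128488244). The third is the end of the long form (chr10:128488330-128488359).
Smarcc2 short end: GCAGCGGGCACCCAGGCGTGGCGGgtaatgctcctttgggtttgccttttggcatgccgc
Smarcc2 CTAAC stretch: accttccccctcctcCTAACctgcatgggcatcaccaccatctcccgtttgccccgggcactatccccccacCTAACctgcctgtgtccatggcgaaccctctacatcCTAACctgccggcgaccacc
Smarcc2 long end: acctcctgcccagtgccagcccactgccag
Neither ACTAAC nor ACTAAT was present in the added Smarcc2 sequence or in the Trrap exons (sense strand only). The flanking introns and the Mta1 microexon were not searched, because the reference held only annotated transcripts. Absence from these exons therefore says nothing about motifs in the introns beside them. The shorter string CTAAC, which was chosen after the sequence had been read, occurred 3 times in the 342 added bases. Of 49310 annotated exons of protein-coding transcripts that reach this length, 13.7% held CTAAC at least once in their first 342 bases, and 0.103% held it 3 or more times. ACTAAC is held by 3.14% and ACTAAT by 3.11% of the same windows. These matches are a description of letters and not of binding.

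Exon-event reads of named genes numbered 26587151 to 80455753 per N2A sample. The median tested member exon had 82 to 263 reads per sample and the median tested member intron 54.03 to 173. Pairs of samples within a group showed 1.24 to 1.54 times the variance of read sampling alone, and none was a copy of another. Junction coverage, the reads of a gene's exon events scaled to the sample total as CPM, of Qk averaged 11.2 ± 2.60 CPM over the siQk samples and 85.4 ± 4.71 CPM over the controls (SD, n = 3 each), so 13.1% remained. Of 7 neuronal or neuroblastoma markers with exon events, 5 reached 10 CPM in every sample, while Nefl and Nefm were near 0. The neuronal markers summed to 1142 to 1157 CPM in siNT and to 1353 to 1455 CPM in siQk. Their part in the results below was not tested. Astrocyte, oligodendrocyte, fibroblast, microglia and embryonic stem cell markers summed to at most 4.96 CPM in any sample, with Aqp4, Slc1a3, Mog, Sox10, Lum, Pou5f1 and Zfp42 at 0 in all 6.

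Among the member exons, 3 rose after Qk knockdown and none fell: the 12 nt microexon of Mta1 and the 54 nt and 21 nt exons of Trrap. Among the member introns, 1 event was called as higher, in Smarcc2. Its reads were unevenly split between the ends of the intron in every sample, so its value does not measure retention of the whole intron. Events were tested where every sample had 10 reads and the mean percent spliced in (PSI, the share of transcripts that include the segment) lay from 2 to 98, which left 129 exons in 43 genes and 191 introns in 54 genes. A call required a limma adjusted p under 0.05 over all events of the class and a difference of at least 10 points. The 3 called exons are 2.33% of the members tested, against 1.18% of all 12930 exons, and the 1 called intron is 0.524%, against 0.113% of all 17664 introns. With so few calls these shares are descriptions. The median difference was 0.41 points over the member exons and 0.04 points over all exons, and -0.16 points over the member introns and -0.21 points over all introns. In absolute size the median difference was 1.57 points for member exons and 1.82 points for all exons.

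**Figure D1:**
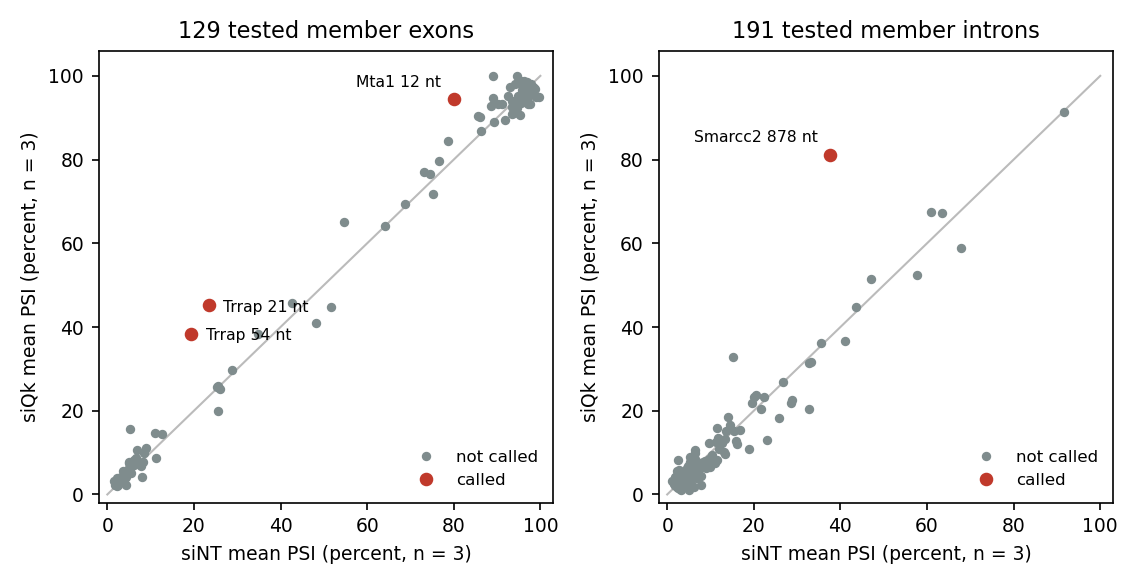
Mean PSI in siQk (vertical, percent) against mean PSI in siNT (horizontal, percent) for the 129 tested member exons and 191 tested member introns, each point 1 event averaged over 3 samples per group. Called events are red and labelled; the other events lie along the line of equal values, with a few introns and exons up to 17.5 points away from it.

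Mta1, a NuRD subunit, carries the 12 nt microexon at chr12:113134801-113134812. Its PSI was 80.32, 80.73 and 78.85 in siNT and 97.07, 93.22 and 93.00 in siQk. The groups did not overlap, and the lowest siQk sample stood over 12 points above the highest siNT sample. The mean rose from 80.0 ± 0.989 (SD, n = 3) to 94.4 ± 2.29 (SD, n = 3), a difference of 14.5 points, with a log2 ratio of inclusion to exclusion reads of 2.17 (SE 0.32, limma adjusted p = 0.00695). At least 606 reads supported each sample's value. The exact ends of this exon are not in GENCODE M21.

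No other Mta1 segment was called. The coding 51 nt exon at chr12:113120211-113120261 had a mean of 25.6 ± 1.41 (SD, n = 3) in siNT and 19.8 ± 0.615 (SD, n = 3) in siQk (limma adjusted p = 0.323). The coding 36 nt exon at chr12:113133541-113133576, which ends where the intron around the microexon starts, had 96.3 ± 2.02 and 98.8 ± 0.263 (limma adjusted p = 0.239). The 2220 nt intron at chr12:113133577-113135796, which contains the microexon, had a PSI of 17.45, 16.15 and 12.30 in siNT and 48.93, 28.62 and 20.74 in siQk. These groups did not overlap, but the siQk samples spread over 28 points and the intron was not called (limma adjusted p = 0.133). Of 13 alternative settings, only leaving out siQk sample 3 gave a call (limma adjusted p = 0.0226). Leaving out siQk sample 1 gave a difference of 9.38 points (limma adjusted p = 0.594). With limma on PSI the adjusted p was 0.988. The junction that skips the microexon and joins the flanking exons had 93, 38 and 147 reads in siNT and 8, 15 and 37 in siQk. These are the counts of the intron event, and the microexon event has its own read counts. Reads into the intron numbered 29, 8 and 36 at its 5′ end and 23, 12 and 21 at its 3′ end in siNT, and 11, 14 and 11 and 8, 3 and 15 in siQk. Since the intron's exclusion reads are those of the skipping junction, its PSI is not independent of that of the microexon. Junction coverage of Mta1 was 540 ± 22.8 CPM in siNT and 486 ± 41.9 CPM in siQk (limma adjusted p = 0.323).

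The Trrap exons moved together. For the 54 nt exon the PSI was 18.60, 23.37 and 15.99 in siNT and 37.74, 42.48 and 34.94 in siQk. The siQk samples were all above the siNT samples, by more than 11 points at the nearest pair. The mean rose from 19.3 ± 3.74 to 38.4 ± 3.81 (SD, n = 3 each), a log2 ratio of 1.39 (SE 0.27, limma adjusted p = 0.0325). For the 21 nt microexon the PSI was 25.15, 28.12 and 16.84 in siNT and 49.22, 43.34 and 42.90 in siQk, again without overlap. Its mean rose from 23.4 ± 5.85 to 45.2 ± 3.53 (SD, n = 3 each), a log2 ratio of 1.46 (SE 0.29, limma adjusted p = 0.0424). Both exons are measured against the same junction that skips them, which had 217, 134 and 363 reads in siNT and 99, 66 and 193 in siQk for the 54 nt event, so they are not independent. The adjusted p of both rose above 0.05, and the calls were lost, whichever of the 6 samples was left out, with a range of 0.0538 to 0.164, while the difference stayed between 17.0 and 24.2 points. The remaining tested Trrap exon, of 78 nt, had 8.42 in siNT and 10.0 in siQk (limma adjusted p = 0.866). None of the 6 tested Trrap introns was called. The smallest unadjusted p among them belonged to the 77 nt intron at chr5:144803086-144803162, with 2.91 in siNT and 4.08 in siQk.

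**Figure D2:**
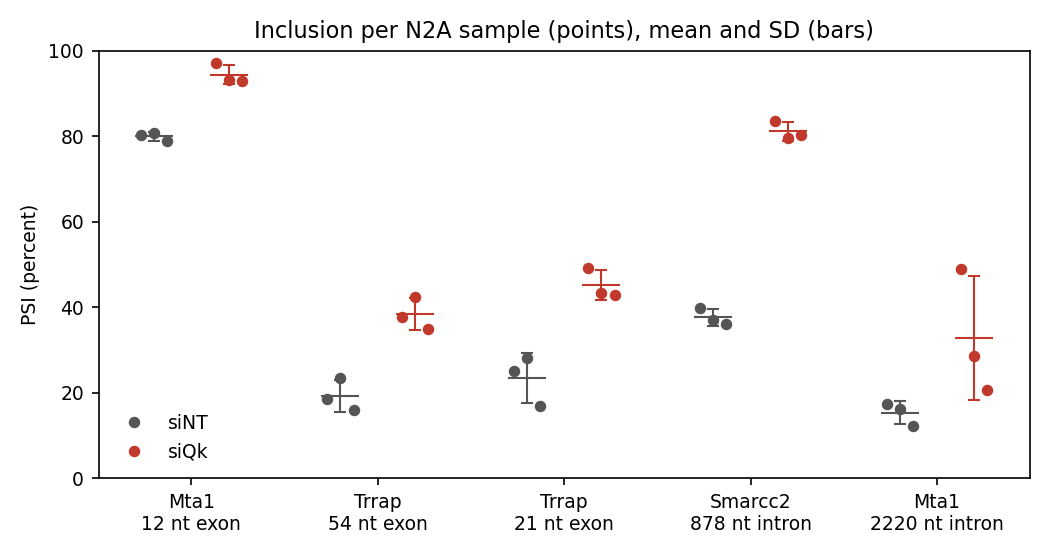
PSI (vertical, percent) in each of 3 siNT samples (grey) and 3 siQk samples (red) for the 4 called events and for the uncalled 2220 nt intron of Mta1; wide marks are group means and bars are SD. The groups are apart in all 5, and the Mta1 intron has the widest siQk spread, from 20.74 to 48.93.

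The Smarcc2 event is listed as a retained intron, but its reads lay mostly at the 5′ end, which is shared with the long form of the exon. Smarcc2 encodes a core subunit of the SWI/SNF complex. The deposited PSI of the 878 nt intron at chr10:128488018-128488895 was 39.78, 36.96 and 36.10 in siNT and 83.65, 79.49 and 80.20 in siQk. The groups lay more than 39 points apart. The mean rose from 37.6 ± 1.92 to 81.1 ± 2.23 (SD, n = 3 each), a log2 ratio of 2.83 (SE 0.26, limma adjusted p = 9.32e-14).

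The intron reads behind this value came mostly from 1 side of the intron. The junction at its 5′ end had 283, 114 and 322 reads in siNT and 221, 172 and 398 in siQk. The junction at its 3′ end had 35, 16 and 21 reads in siNT and 6, 6 and 18 in siQk, so the 5′ end had 7.13 to 36.8 times as many. The table's own test of balance between both ends gave p-values from 5.08e-52 to 5.00e-11 over the 6 samples. When introns with unbalanced junctions (p under 0.05 in any sample) were left out, the event was no longer tested and no member intron was called. A splice junction from the end of the 426 nt form to the next exon, at 128488896, is read in a separate event of the table. It had 566, 285 and 589 reads in siNT and 320, 168 and 457 in siQk. The junction of the 84 nt form to the same exon had 243, 112 and 305 reads in siNT and 22, 23 and 51 in siQk.

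The long form therefore took 70.0%, 71.8% and 65.9% of these spliced reads in siNT and 93.6%, 88.0% and 89.96% in siQk. All siQk samples were above all siNT samples. The mean share was 69.2% ± 3.02 (SD, n = 3) in siNT and 90.5% ± 2.84 (SD, n = 3) in siQk, a difference of 21.3 points. An exact two-sided permutation test gave p = 0.1, the smallest value that 3 samples against 3 allow. This share uses the same short-form junction as the intron PSI and is not independent of it. Junction coverage of Smarcc2 was 267 ± 30.1 CPM in siNT and 253 ± 23.1 CPM in siQk (limma adjusted p = 0.752).

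**Figure D3:**
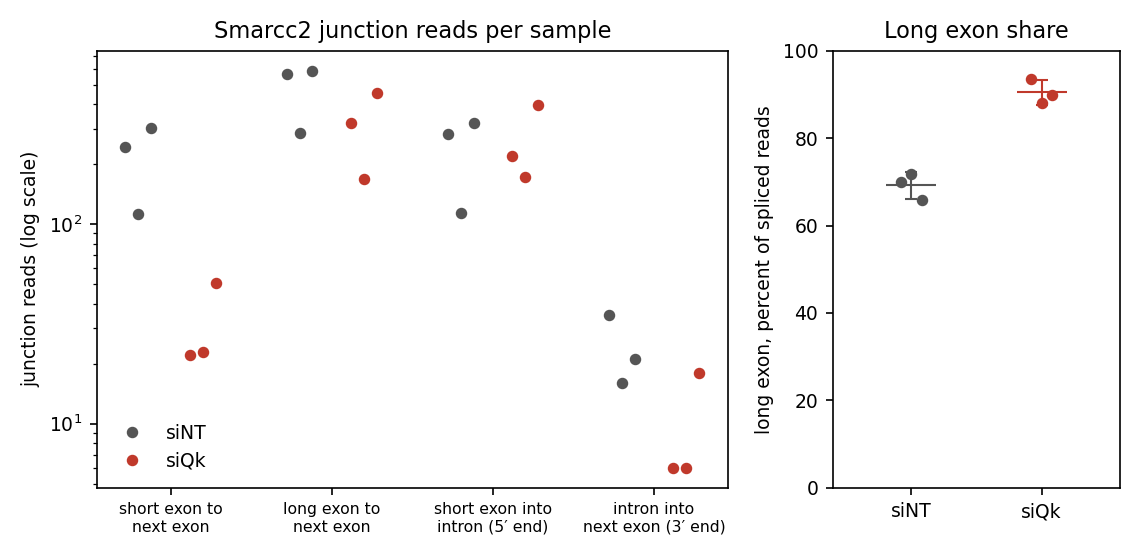
Left, reads (vertical, log scale) at 4 Smarcc2 junctions in each of 3 siNT samples (grey) and 3 siQk samples (red), not scaled to depth; right, the long form as a percent of spliced reads to the next exon, with means (wide marks) and SD (bars). The short-form junction had 112 to 305 reads in siNT and 22 to 51 in siQk, and few reads cross the 3′ end of the intron in either group.

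Outside these genes, the member exons with the smallest p in each family did not pass the test, so their values are given without a call. In the deacetylases, the coding 134 nt exon of Hdac4 at chr1:91945900-91946033 had 99.7 ± 0.531 in siNT and 94.9 ± 3.27 in siQk (SD, n = 3 each, limma adjusted p = 0.199), and a 62 nt Hdac4 exon at chr1:92141520-92141581 had 5.16 ± 1.08 and 15.6 ± 2.85 the shallowest sample holding 18 reads (adjusted p = 0.428). Hdac4 is a class IIa deacetylase that shuttles between nucleus and cytoplasm. In the Arid family, whose proteins include SWI/SNF subunits, the 180 nt exon of Arid1b at chr17:5279203-5279382 had 92.9 ± 0.927 and 97.4 ± 1.71 (adjusted p = 0.233), and a 153 nt exon of Arid4b had 85.6 ± 0.104 and 90.3 ± 3.19 (adjusted p = 0.598). In the methyltransferases, which include the MLL proteins Kmt2a and Kmt2c, the 324 nt exon of Kmt2a at chr9:44849731-44850054 had 89.0 ± 5.99 and 100 in every siQk sample, with as few as 13 reads (adjusted p = 0.356). The 120 nt exon of Kmt2c at chr5:25366077-25366196 had 97.1 ± 1.74 and 93.2 ± 1.01 (adjusted p = 0.538).

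No exon of the SWI/SNF-related (Smarc), CHD or demethylase genes was called. The 99 nt exon of Smarca4, which encodes the ATPase also called BRG1, had 3.60 ± 0.537 in siNT and 5.58 ± 1.26 in siQk (limma adjusted p = 0.457). The 110 nt exon of Smarcad1 had 96.8 ± 0.419 and 94.5 ± 0.526 (adjusted p = 0.519). For the helicase Chd3, also a NuRD subunit, the 102 nt exon had 86.0 ± 3.36 and 90.1 ± 1.70 (adjusted p = 0.582), and the 133 nt exon of Chd2 had 95.3 ± 1.64 and 90.6 ± 2.06 (adjusted p = 0.594). None of the 28 tested demethylase exons had an unadjusted p under 0.05. The nearest were a 53 nt Kdm3a exon with 11.0 ± 2.05 and 14.7 ± 1.31 and the 123 nt exon of Kdm5c with 93.8 ± 1.12 and 91.0 ± 3.21. Over all families, 12 of the 129 exons (9.30%) had an unadjusted p under 0.05, against 9.04% of all exons tested. A difference of 10 points or more was reached by 6 member exons (4.65%), against 5.51% of all exons.

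Most member exons were not alternative in N2A cells. In siNT, 1353 of the 1613 covered exons (83.9%) had a mean PSI over 98 and 125 (7.75%) had one under 2. Only 30 exons in 20 genes (1.86%) lay from 10 to 90, against 3.89% of all covered exons. Of these 30, 22 (73.3%) have a length that is a multiple of 3, against 49.0% of the 4257 such exons in the whole table, and 22 are coding with both ends annotated. In 20 of the 30, the group means lay within 5 points of each other. Among the exons with a siNT PSI nearest 50 in each family, those of Trrap (21 nt) and Mta1 (51 nt) are given above, and the other 6 were not called. The 108 nt exon of Chd2 at chr7:73507806-73507913 had 64.1 ± 2.58 in siNT and 64.0 ± 6.72 in siQk (SD, n = 3 each). The 54 nt exon of Smarca2, which encodes the ATPase also called BRM, had 25.3 ± 3.40 and 25.7 ± 3.11, and the 159 nt exon of Arid1b had 25.6 ± 2.49 and 25.9 ± 5.55. The 82 nt exon of Kdm5a had 34.9 ± 3.08 and 38.3 ± 2.35, and the 116 nt exon of Kmt5a, a histone H4 methyltransferase, had 42.7 ± 5.26 and 45.8 ± 5.35. The 111 nt exon of Hdac7 had a difference of -6.90 points within a wider spread between replicates, with 30.81, 53.15 and 71.31 in siNT and 19.15, 63.64 and 51.79 in siQk. No adjusted p of these 6 exons was under 0.849.

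Of 18 member microexon events, 16 had 10 reads in each N2A sample. Their siNT PSI was under 2 for 10 of them and over 98 for 3. Only 3 could be tested, the Mta1 and Trrap microexons and a 27 nt Kmt2b exon with 97.6 in siNT and 93.3 in siQk. Of the 10 silent ones, 8 had a PSI of 0 in every sample, among them 3 nt events of Smarca2, Kdm6a and Kmt5a and a 24 nt event of Chd7.

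No intron outside Smarcc2 was called. The smallest unadjusted p in the methyltransferases was that of a 2535 nt Kmt5c intron, with 4.82 ± 0.462 in siNT and 2.67 ± 0.995 in siQk. A 209 nt intron of the NuRD helicase Chd4 had 6.44 ± 0.890 and 9.81 ± 1.40, and a 386 nt intron of Hdac5 had 1.96 ± 0.565 and 4.22 ± 2.51. A 78 nt Arid2 intron had 2.10 ± 2.71 and 3.04 ± 1.17, and a 258 nt Kdm3a intron had 16.2 ± 1.41 and 12.1 ± 6.59. The limma adjusted p of these 5 lay from 0.845 to 1.00. The Chd4 and Kdm3a introns were not tested when balanced junctions were required, and that of Chd4 was unbalanced in every sample. In siNT, 22 introns in 13 genes had a PSI of 20 or more. Hdac10, a deacetylase of polyamines, held 6 of them, with siNT means of 22.3 to 57.8, and in all 6 the reads of both intron ends were balanced in every sample. The 230 nt Hdac10 intron had 32.8 ± 5.64 in siNT and 20.3 ± 1.25 in siQk (adjusted p = 0.965). The junctions were unbalanced in every sample for 11 of the 22, among them introns of Smarca2 (464 nt), Chd9 (856 nt) and Kmt2b (567 nt), which are read at 61.0, 67.8 and 100 in siNT. Over all tested introns, 12.0% of the members and 6.50% of the whole class were unbalanced in every sample.

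Kdm4a was the 1 member gene called for junction coverage, a count that other settings changed. It encodes a demethylase of histone H3 lysines 9 and 36. Its coverage was 123, 134 and 134 CPM in siNT and 102, 99.9 and 98.9 CPM in siQk, without overlap. The mean fell from 130 ± 6.31 to 100.3 ± 1.65 CPM (SD, n = 3 each), a log2 fold change of -0.38 (SE 0.07, limma adjusted p = 0.0306). The call was lost when any sample but siQk sample 1 was left out, with adjusted p from 0.0519 to 0.144. Of 67 member genes with a mean of 20 reads, this 1 call is 1.49%, against 4.21% of all 10851 genes. The count became 2 with median-of-ratios scaling, where Kmt5a was added, 9 with a replicate block, 7 without siQk sample 1 and 0 without any other single sample.

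Coverage was lower in siQk for 51 of the 67 genes (76.1%), against 45.6% of all genes, and the median log2 fold change was -0.09 for members and 0.02 for all genes. With median-of-ratios scaling 54 of the 67 (80.6%) were lower, against 52.7% of all genes, with medians of -0.13 and -0.01. That scaling also shifted the calls over all genes from 300 higher and 157 lower to 238 higher and 209 lower. The demethylases had 13 of 15 genes lower (median -0.14), the methyltransferases 6 of 8 (-0.20), the Arid genes 8 of 9 (-0.19) and the deacetylases 8 of 10 (-0.08). The Chd genes had 6 of 10 lower (-0.03) and the Smarc genes 7 of 11 (-0.06). At an unadjusted p under 0.05 there were 10 lower and 3 higher member genes (19.4% of the 67), against 839 lower and 1376 higher of all genes (20.4%). The extremes of the 67 were Kmt5a at -0.49 (limma adjusted p = 0.0669, and 0.0425 with median-of-ratios scaling) and Arid5b at 0.61 (adjusted p = 0.0945). In bulk samples, fewer cells of a type and less RNA per cell cannot be told apart. Hdac1, Smarca5, Arid3c and Kdm4d had under 5 exon-event reads on average and were not tested. Reads of intron events do not enter this coverage. Of the 74 genes, 70 had an exon or intron event with 10 or more reads in each sample. A low exon-event count is therefore not a measure of low expression here.

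**Figure D4:**
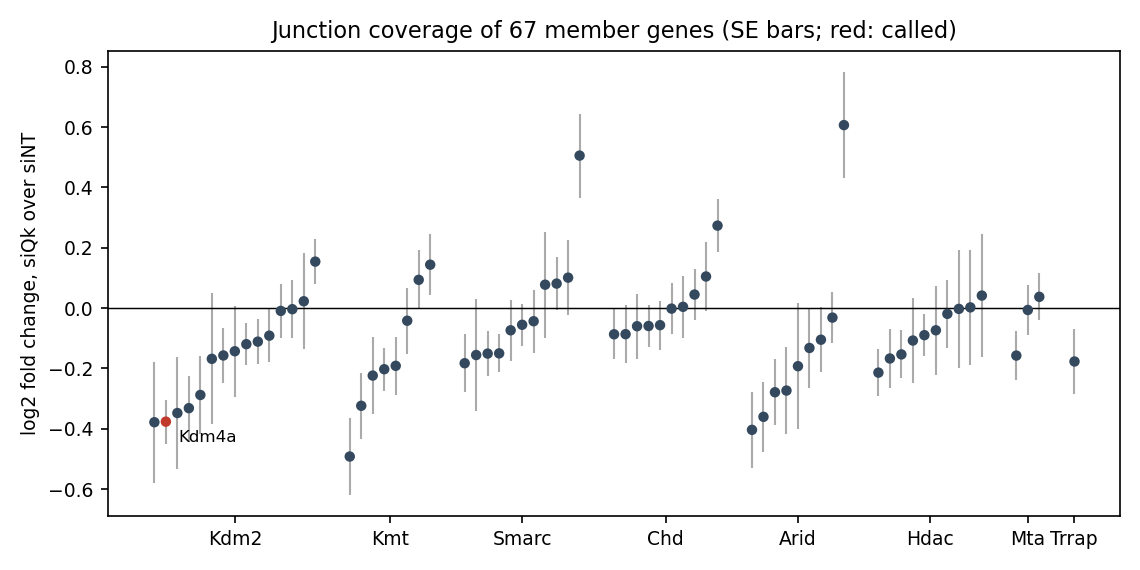
Log2 fold change of junction coverage (vertical, siQk over siNT) with SE bars for 67 member genes, grouped by family and sorted within it. Kdm4a at -0.38 is the called gene (red), and 51 of the 67 points lie below 0.

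Genes that work in the same complexes were read from lists of 116 partner genes, among them other BAF and NuRD subunits, COMPASS partners of the Kmt2 proteins and the TIP60 and SAGA partners of Trrap. None of their 169 tested exons was called by limma on the read ratio, with 18 (10.7%) at an unadjusted p under 0.05, against 9.04% of all exons; limma on PSI called 1 and limma with sampling variance weights called 2. None of their 224 tested introns was called, with 5 (2.23%) at an unadjusted p under 0.05, against 5.02% of all introns, and 0 calls by both other fits. Differences of the partner exons ran from -15.7 to 17.6 points, with a median of 0.66 points. The lowest was that of the 140 nt exon of Pbrm1, the polybromo subunit of PBAF, at chr14:31022720-31022859. It had 70.4 ± 3.12 in siNT and 54.7 ± 2.96 in siQk (SD, n = 3 each, limma adjusted p = 0.115). The 240 nt exon of Ep400, the ATPase of the TIP60 complex, had 75.8 ± 0.847 and 61.6 ± 5.65 (adjusted p = 0.117). Of 110 partner genes tested for coverage, 2 (1.82%) changed, against 4.21% of all genes. That count became 9 with a replicate block, 6 without siQk sample 1 and 0 without any other single sample. Kat2b, a SAGA acetyltransferase, fell from 50.3 ± 5.11 to 34.9 ± 2.29 CPM (limma adjusted p = 0.0324). Suds3, a subunit of Sin3 deacetylase complexes, rose from 163 ± 6.57 to 204 ± 3.17 CPM (adjusted p = 0.0399). Leaving out any 1 sample but siQk sample 1 lost both calls, and median-of-ratios scaling lost that of Suds3 (adjusted p = 0.0618).

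The authors' deposited list of neural microexons held 2 members. It gave the Mta1 microexon 79.9% in siNT and 93.6% in siQk and the Trrap microexon 24.4% and 45.0%, and classed both as repressed by Qk, as it did 41 exons of the list (18.1%). It placed an ACTAAY motif upstream of the Mta1 exon and none at the Trrap exon, while 27 exons of the list (11.9%) have it upstream. These values come from the same 6 samples as those above and are not separate evidence.

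In neurons, cycloheximide went with lower inclusion of the Trrap 21 nt microexon and of a 6 nt Hdac9 microexon. The authors' deposited table compares microexons in untreated and treated neurons, with 1 combined value per condition and no spread over samples, and an exon was counted as changed at 10 points and a probability of 0.9. Of its 2469 rows, 14 belong to 9 member genes, and 2 of the 14 (14.3%) changed, against 9.4% of all rows. Among all rows that changed, 177 were lower and 55 higher with cycloheximide, so a fall was the more common direction. In that table the Trrap microexon, whose sequence is given above, had 71.4% untreated and 24.7% with cycloheximide, with a probability of 1.00. In N2A cells the same exon was at 23.4 in siNT and 45.2 in siQk; the neuron and N2A values come from separately processed tables and were not compared by a test. The Hdac9 exon at chr12:34866571-34866576 had 95.03% and 57.1% in the authors' deposited table, with a probability of 0.99. The exact ends of this Hdac9 exon are not in GENCODE M21. Hdac9 is a class IIa deacetylase related to Hdac4.

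Just outside the rule, the authors' deposited table listed a 3 nt Kmt2c exon at chr5:25419637-25419639 with 48.9% and 23.6% and a probability of 0.888. The other 11 rows differed by at most 2.58 points. The 20 nt exon of Kmt5b had 98.9% and 96.4% and that of Kmt5c 99.5% and 99.5% in the authors' deposited table. Both were also at 100 in siNT, and at 99.1 and 100 in siQk. A further 9 rows were under 10% in both conditions in the authors' deposited table, among them a second 3 nt Kmt2c exon (6.63% and 4.26%), a 3 nt Arid5b exon (5.21% and 7.27%), a 4 nt Smarcc1 exon (0.387% and 1.95%) and a 16 nt Chd6 exon (3.56% and 2.12%). The Mta1 microexon was not among the rows. For 3 of the 14 rows, those of Trrap, Kmt5b and Kmt5c, the N2A table held an event with the same ends.

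**Figure D5:**
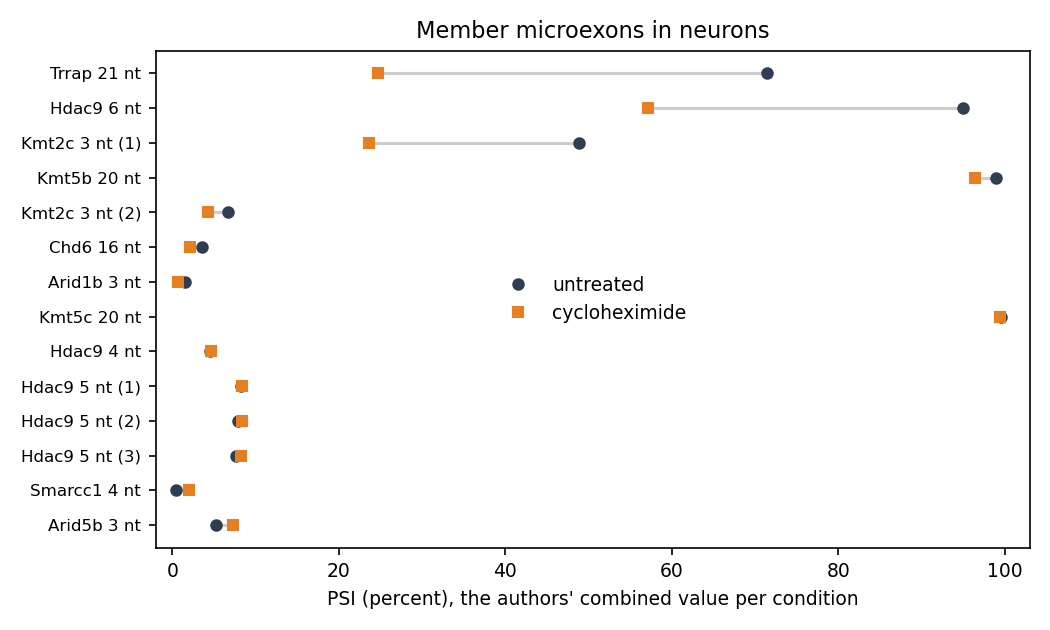
PSI (horizontal, percent) of the 14 member rows of the authors' deposited neuron table, untreated (dark circles) and with cycloheximide (orange squares), 1 combined value per condition. Trrap fell by 46.7 points and the 6 nt Hdac9 exon fell by 37.9 points, Kmt2c had 48.9% and 23.6% without passing the rule, and the other rows lie close to 0 or 100 with little difference.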

How the data were processed

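The authors deposited a table with a percent (PSI) per splicing event and N2A sample and, in a quality cell of another kind (text), the inclusion and exclusion reads per event; units are per the file headers. They also deposited, as fractions, a neural microexon list and a neuron comparison with a probability per row, replicates combined. Which neuron column is untreated was read from the order of the conditions in that table's name. The build is mm10, per the submitters' processing notes; aligner and caller are not given in the sources used here. Read depth in neurons is unknown, and reads may include PCR copies.

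After 0.5 was added to both, inclusion over exclusion reads on the log2 scale were compared with limma 3.58.1 in R 4.3.3 (robust, variance trend on sampling variance, two-sided) over all events of a class, with Benjamini-Hochberg adjustment. Exon-event reads summed per gene, as CPM, were tested as log2(CPM + 0.5) with limma's trend method, which understates folds of genes with low coverage. A read can serve several events. The scripts were tested on simulated data. Exon ends were looked up in GENCODE M21 and junction reads taken from the quality cells. Gene IDs of all 2469 neuron rows matched a symbol once versions were dropped.

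Members, gene lists and tests were chosen with earlier results of these data known. Named were all called events and genes, all members of the neural list, the neuron rows that changed and 6 more with the largest difference, and in each family the 2 exons and 1 intron with the smallest p and the exon with at least 50 reads nearest a siNT PSI of 50. Other events and genes named were chosen after their values were seen. Alternatives were other read minimums, filters, pseudocounts, scales, weights, scalings, a replicate block and leaving out each sample. Figures were drawn with Python 3.11.15 and matplotlib 3.10.9.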

Additional observations from a re-analysis of the deposited data

How the results depend on the processing

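The 3 called exons and the Smarcc2 intron kept their calls with at least 20 reads, no PSI filter, limma on PSI, a pseudocount of 1, sampling variance weights and a replicate block. Leaving out a sample left 1 called member exon each time, that of Mta1, and 1 to 2 called member introns, the second being that of Mta1 without siQk sample 3. Requiring balanced junctions left 0 member introns. The count of member genes with changed coverage was 1 and became 2 with median-of-ratios scaling (Kdm4a and Kmt5a), 9 with the replicate block, 0 with a 1.5-fold minimum and 0 to 7 when 1 sample was left out, 7 without siQk sample 1. For the partner genes the coverage count was 2 and became 1, 9, 0 and 0 to 6 under the same settings, 6 without siQk sample 1. Their exon count of 0 became 1 with limma on PSI, 2 with weights and 0 to 1 when 1 sample was left out. The cause of these shifts was not tested; with a sample left out, fewer samples enter the fit. Of the results compared, none reversed in direction where called. Same-numbered siNT and siQk samples correlated in their deviations at 0.139, 0.0193 and 0.116 for exons and 0.479, -0.136 and 0.48 for coverage. Differently numbered samples correlated at -0.147 to 0.0451 for exons and -0.641 to 0.493 for coverage. The labels do not say that a number marks a shared batch, so the main fits did not pair the samples. Whether same-numbered samples share a batch was not tested. Low read numbers limit the Kmt2a and 62 nt Hdac4 exons.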
